A study of Homo sapiens with 12 samples.

Results

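KMS-11 myeloma cells exposed to NSC12 for 12 h were compared with KMS-11 cells exposed to NSC12 for 6 h. The comparison took every array whose label gives NSC12 and either time, which is 6 of the 12 arrays of the series, 3 at each time. The other 6 arrays, DMSO for 12 h and DMSO for 6 h with 3 each, gave the change of vehicle cells over the same interval. All 4 groups were the same cell line, kept in 1% serum (FBS) for 24 h before treatment; NSC12 was given at 6 µM. The labels name no separate cultures, so the p-values measure the spread between these arrays, which may be technical.

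NSC12 is a small molecule reported to bind and trap the fibroblast growth factors (FGFs), secreted ligands that activate FGF receptors and, through them, the MAPK cascade and its early-response genes. KMS-11 is a human multiple myeloma line, a malignancy of plasma cells, in which a translocation drives high FGFR3 expression from the immunoglobulin heavy chain locus. Plasma cells secrete large amounts of protein and depend on chaperones, on the unfolded protein and amino acid stress pathways and on the factors IRF4 and MYC. A change between the later and the earlier time separates genes that went on moving after the early treated profile from those that had already levelled off.

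Values are log2 intensities after quantile normalisation, with the brightest probe standing for each gene, and a change is the log2 difference of 12 h minus 6 h with the standard error (SE) of a limma fit. A gene is said to have risen or fallen where its Benjamini-Hochberg adjusted p from that fit was below 0.05. An additive background remains in the intensities, which understates the changes of dim genes, and the level of 6.96 (log2), below which 95% of 368 olfactory receptor genes lay, was taken as background. Before normalisation the mean intensity was 588 ± 36.0 in the NSC12 12 h arrays and 428 ± 61.6 in the NSC12 6 h arrays (SD, n = 3 each), without overlap, against 538 ± 77.3 in DMSO 12 h and 521 ± 153 in DMSO 6 h. Brightness and time thus moved together in the treated arm, and the part of brightness in the results was not tested beyond the fit that carried it as a covariate. Array profiles correlated at 0.992 to 0.996 within groups. Markers of T and NK cells showed no change that passed for any of 13 genes, and 3 were above background in NSC12 12 h. Of 12 stromal and endothelial genes only DCN rose. Of 12 myeloid markers only CD68 (1.29) and FCGR3A (0.57) rose, on 1 probe each, and the summed myeloid level was 11.1 to 11.2 in NSC12 12 h, 10.7 to 10.8 in NSC12 6 h, 10.9 to 11.0 in DMSO 12 h and 10.8 to 10.9 in DMSO 6 h; the part of other cells in the results was not tested, and in bulk RNA fewer cells of a type and less RNA per cell cannot be told apart. The plasma cell genes TNFRSF17 (12.78 and 12.58 in NSC12 at 12 h and 6 h) and XBP1 (12.86 and 13.10) were bright, whereas CD38 (6.93 and 7.05) lay near background.

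Over these 6 h of treatment 2211 genes rose (11.0%) and 2288 fell (11.4%) of 20045 tested, and 90 of the rises and 45 of the falls were at least 2-fold. In DMSO over the same interval 50 genes rose (0.249%) and 30 fell (0.15%), and only 1 of them, CCL3L3, moved 2-fold or more. The direct test of the difference, the change in NSC12 minus the change in DMSO, passed for 934 genes upward (4.66%) and 1157 downward (5.77%), together 10.4%. With array brightness as a covariate 1882 genes rose and 1935 fell in NSC12. With the arrays centred on their medians in place of quantile normalisation, 1818 rose and 694 fell (72.4% rises, against 49.1% on the quantile scale). List counts given below for median centring belong beside these 1818 and 694 of 20045 genes, and not beside the quantile shares.

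The test of the difference sorted the 4499 treated changes (22.4% of all genes). A total of 1951 (866 rises, 4.32% of all genes, and 1085 falls, 5.41%) differed from DMSO, with a difference in the direction of the treated change. They were 39.2% of all rises and 47.4% of all falls. They include genes that moved in opposite directions in the 2 arms, such as CCL3 (-0.25 with NSC12 and 0.95 with DMSO). Another 28 (18 rises and 10 falls) were called in DMSO in the same direction with no difference that passed, and 2519 were not decided. The remaining gene, CCL3L3, rose less in NSC12 than in DMSO. Among the changes of at least 2-fold all 45 falls and 83 of the 90 rises differed from DMSO. Of the 80 genes called in DMSO (0.399%), 31 were called in NSC12 in the same direction (38.8% of the DMSO calls and 0.689% of the NSC12 calls), 15 in the opposite direction and 34 did not pass in NSC12. Under median centring the number that differed from DMSO was 348.

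The DMSO arrays were not alike for the genes that moved most with NSC12. Of the 90 rises of at least 2-fold, 74 had their highest DMSO level in DMSO 12 h replicate 3 and 54 their lowest in DMSO 6 h replicate 3, and 41 of the 45 falls had their lowest in DMSO 12 h replicate 1. In 10 of the 90 rises, and in none of the 45 falls, the 6 DMSO arrays spanned more than the change seen with NSC12. Without DMSO 12 h replicate 3 the number that differed from DMSO was 1976, and without DMSO 12 h replicate 1 it was 1951.

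**Figure D1:**
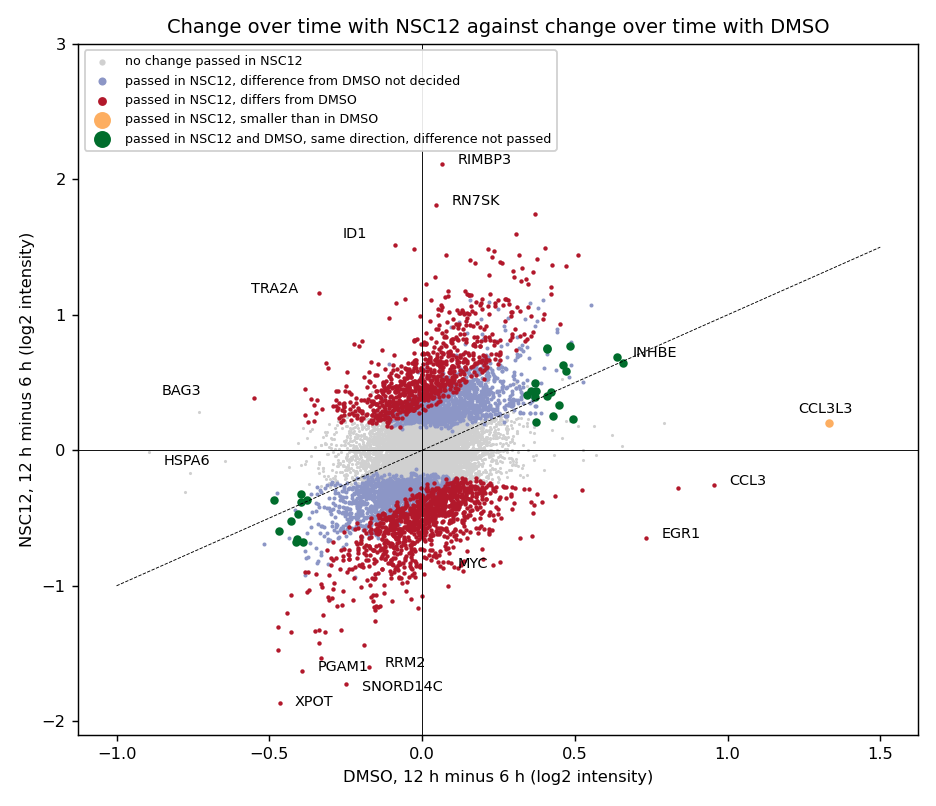
Change from 6 h to 12 h with NSC12 (vertical axis) against the change with DMSO (horizontal axis), both as log2 intensity differences, for the 12067 genes above background in a treated group. Each point is a gene, coloured by its class, and the dashed line marks equal changes. The treated changes reach 2.12 and -1.86, while in DMSO only CCL3L3 passes 1 in size.

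Of 16 small nuclear RNA genes 9 rose, of 279 small nucleolar RNA genes 47, and of 560 microRNA genes 7, beside 11.0% of all genes and 18.0% of those above background. RN7SK, the 7SK RNA that holds the elongation kinase P-TEFb inactive, read 12.87, 13.22 and 12.94 in the NSC12 12 h arrays and 11.03, 11.44 and 11.13 in the NSC12 6 h arrays, against 9.51, 9.72 and 10.03 in DMSO 12 h and 10.00, 9.67 and 9.44 in DMSO 6 h. The treated arrays of both times lay above all DMSO arrays. The rule that named the 12 largest rises and falls required that the treated times did not overlap. For those genes the separation of the treated times is therefore no further support. The change was 1.81 ± 0.14 (adjusted p = 1.05e-08, limma), a 3.5-fold rise, its other probe rose as well, and the difference from DMSO was 1.76 ± 0.19 (adjusted p = 6.93e-06).

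RNU6-1, a U6 spliceosomal RNA, had 12.82, 13.15 and 12.96 in NSC12 12 h and 11.71, 11.77 and 11.61 in NSC12 6 h, against 10.93, 11.05 and 11.04 in DMSO 12 h and 11.07, 10.96 and 10.86 in DMSO 6 h. Its rise of 1.28 ± 0.08 was absent from DMSO (0.04), where the 6 arrays lay close together. Of the 20 measured U small nuclear RNAs and 7SK partners 8 rose and 2 fell, beside 11.0% and 11.4% of all genes, and the median change was 0.08 against 0.00 over all genes. RNU4-2 (1.03), RNU4-1 (0.76), RNU6ATAC (0.72) and RNU11 (0.51) rose with a difference from DMSO that passed, while RNU5A-1 (0.25) and RNU2-1 (0.22) rose with an undecided difference. After background subtraction the difference did not pass for RNU4-2 (adjusted p = 0.232) or RNU6ATAC (0.17). The 2 that fell were protein genes, LARP7 (-0.36), which binds and stabilises 7SK, and CCNT2 (-0.35), a cyclin of P-TEFb. LARP7 also fell in DMSO (-0.48), and under median centring its treated fall did not pass (-0.14, adjusted p = 0.716).

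SNORD3C, a copy of the U3 small nucleolar RNA that guides ribosomal RNA cleavage, stood at 10.67, 10.74 and 10.56 in NSC12 12 h and 9.0, 9.18 and 8.99 in NSC12 6 h, against 7.71, 7.76 and 7.64 in DMSO 12 h and 7.49, 7.33 and 7.38 in DMSO 6 h. The groups rank in that order without overlap, and the rise of 1.60 ± 0.08 (adjusted p = 6.87e-11) exceeded the DMSO change by 1.29 ± 0.12. SNORD3A (1.49) and SNORD3D (1.37) moved alike, but these copies are nearly identical and their probes cannot be told apart with certainty. SNORD46 read 8.69, 8.84 and 8.48 in NSC12 12 h, against 7.29, 7.27 and 7.14 in NSC12 6 h, and its 6 DMSO arrays all lay between 7.07 and 7.21. SNORD13 (1.21), SNORD11 (1.17), SNORA28 (1.04) and SNORD104 (0.67), named after their values were seen, also rose more than in DMSO. For SNORD13 that difference was lost without DMSO 6 h replicate 1 (adjusted p = 0.0532), NSC12 12 h replicate 2 (0.0513) or NSC12 6 h replicate 1 (0.0538). For SNORD104 it did not pass under median centring (adjusted p = 0.184).

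Most small nucleolar RNAs did not pass. Of 279 measured, 156 were above background in a treated group. Among the 279, 47 rose and 21 fell, beside 11.0% and 11.4% of all genes, and the median change was 0.03. The deepest falls were SNORD14C and SNORD14D, which sit in introns of the heat shock gene HSPA8. SNORD14C was 10.58, 9.69 and 10.04 in NSC12 12 h and 11.98, 11.72 and 11.80 in NSC12 6 h, against 7.81, 8.0 and 7.95 in DMSO 12 h and 8.28, 8.04 and 8.18 in DMSO 6 h. It thus lost 3.31-fold (-1.73 ± 0.14, adjusted p = 2.77e-08) and at 12 h still lay above every DMSO array. SNORD14D fell by 1.53 ± 0.15, whereas the host HSPA8 changed by 0.14 (adjusted p = 0.11). SNORA70 fell as well (-0.93). Among the 16 small nuclear RNA genes none fell, among 798 long noncoding RNA genes 48 rose and 13 fell, and among 17776 protein-coding genes 2030 rose and 2212 fell. The labelling kit primes RNA through its poly(A) tail, so the share of each of these mostly untailed RNAs that the arrays reached was not measured.

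The largest single rise was that of RIMBP3, a gene best known from testis, with 10.16, 10.46 and 10.22 in NSC12 12 h and 7.96, 8.29 and 8.23 in NSC12 6 h, against 7.48, 7.57 and 7.73 in DMSO 12 h and 7.68, 7.52 and 7.40 in DMSO 6 h. The 4.34-fold change rests on 1 bright probe, since the gene's other probes lay near background and moved by 0.13. ID1, which encodes an inhibitor of basic helix-loop-helix factors and is a target of BMP signalling, read 9.94, 10.03 and 10.13 in NSC12 12 h and 8.47, 8.63 and 8.45 in NSC12 6 h, against 8.89, 8.83 and 8.57 in DMSO 12 h and 8.78, 8.85 and 8.92 in DMSO 6 h. The treated 6 h arrays were the lowest of the 4 groups apart from overlap with 1 DMSO 12 h array, and the treated 12 h arrays were the highest. ID1 rose by 1.52 ± 0.09 with no change in DMSO that passed (-0.09).

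Several of the other leading rises had DMSO arrays that scattered widely. HNRNPL, an RNA-binding splicing regulator, had 11.24, 11.17 and 11.20 in NSC12 12 h and 9.28, 9.75 and 9.34 in NSC12 6 h, against 9.28, 9.62 and 10.61 in DMSO 12 h and 9.72, 9.62 and 9.06 in DMSO 6 h. The treated times were far apart (1.75 ± 0.22), but DMSO 12 h replicate 3 lay between them, and after background subtraction the difference from DMSO did not pass (adjusted p = 0.123). The same DMSO array was the highest of its group for RYBP, a Polycomb component (1.47), for XRCC2, a recombination repair gene (1.49), for CCBE1, a secreted factor of lymphatic growth (1.44), and for USF1, an E-box transcription factor (1.44). The difference from DMSO of RYBP was lost without DMSO 6 h replicate 1 (adjusted p = 0.0529), and that of USF1 did not pass when any of 9 arrays was left out (adjusted p up to 0.104, without NSC12 6 h replicate 1).

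The largest fall was that of XPOT, the nuclear exporter of transfer RNAs and a target of the amino acid stress pathway, with 8.20, 7.70 and 7.96 in NSC12 12 h and 9.82, 9.65 and 10.00 in NSC12 6 h, against 9.04, 9.64 and 10.21 in DMSO 12 h and 10.25, 9.68 and 10.36 in DMSO 6 h. All treated 12 h arrays lay below all other arrays, although the DMSO 12 h arrays themselves spread over more than 1 log2 unit. The fall was 3.64-fold (-1.86 ± 0.20, adjusted p = 7.29e-07). PGAM1, a glycolytic mutase, stood at 9.58, 8.98 and 9.03 in NSC12 12 h and 10.91, 10.64 and 10.92 in NSC12 6 h, against 10.77, 10.81 and 11.02 in DMSO 12 h and 11.18, 11.21 and 11.37 in DMSO 6 h. Its DMSO arrays ran from 10.77 to 11.37 and overlapped the treated 6 h arrays, and its other probe fell too (a change of -1.27).

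RRM2, the regulated subunit of ribonucleotide reductase, read 8.91, 8.13 and 8.53 in NSC12 12 h and 10.15, 9.99 and 10.21 in NSC12 6 h, against 9.51, 9.64 and 9.97 in DMSO 12 h and 9.79, 9.81 and 10.05 in DMSO 6 h. It was lower in every treated 12 h array than in any other, and the difference from DMSO was -1.42 ± 0.20 (adjusted p = 0.000103). CXCR4, the chemokine receptor that holds plasma cells in bone marrow, fell by 1.48 ± 0.16, with 7.70, 7.13 and 7.34 in NSC12 12 h and 8.92, 8.74 and 8.93 in NSC12 6 h. Its DMSO arrays ran from 8.06 to 9.11, and with the mean of its probes the difference from DMSO did not pass (-0.34, adjusted p = 0.136). The proteasome ATPase PSMC4 (-1.44), the nuclear envelope genes LBR (-1.42) and TMPO (-1.34), the MyoD family inhibitor domain gene MDFIC (-1.34), VOPP1 (-1.33) and the elongation factor gene TCEA1 (-1.33) fell as well, each further than in DMSO. For TMPO that difference did not pass with the mean of its probes (adjusted p = 0.0723), and for LBR (0.0761), PSMC4 (0.0588) and XPOT (0.0506) not after background subtraction.

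**Figure D2:**
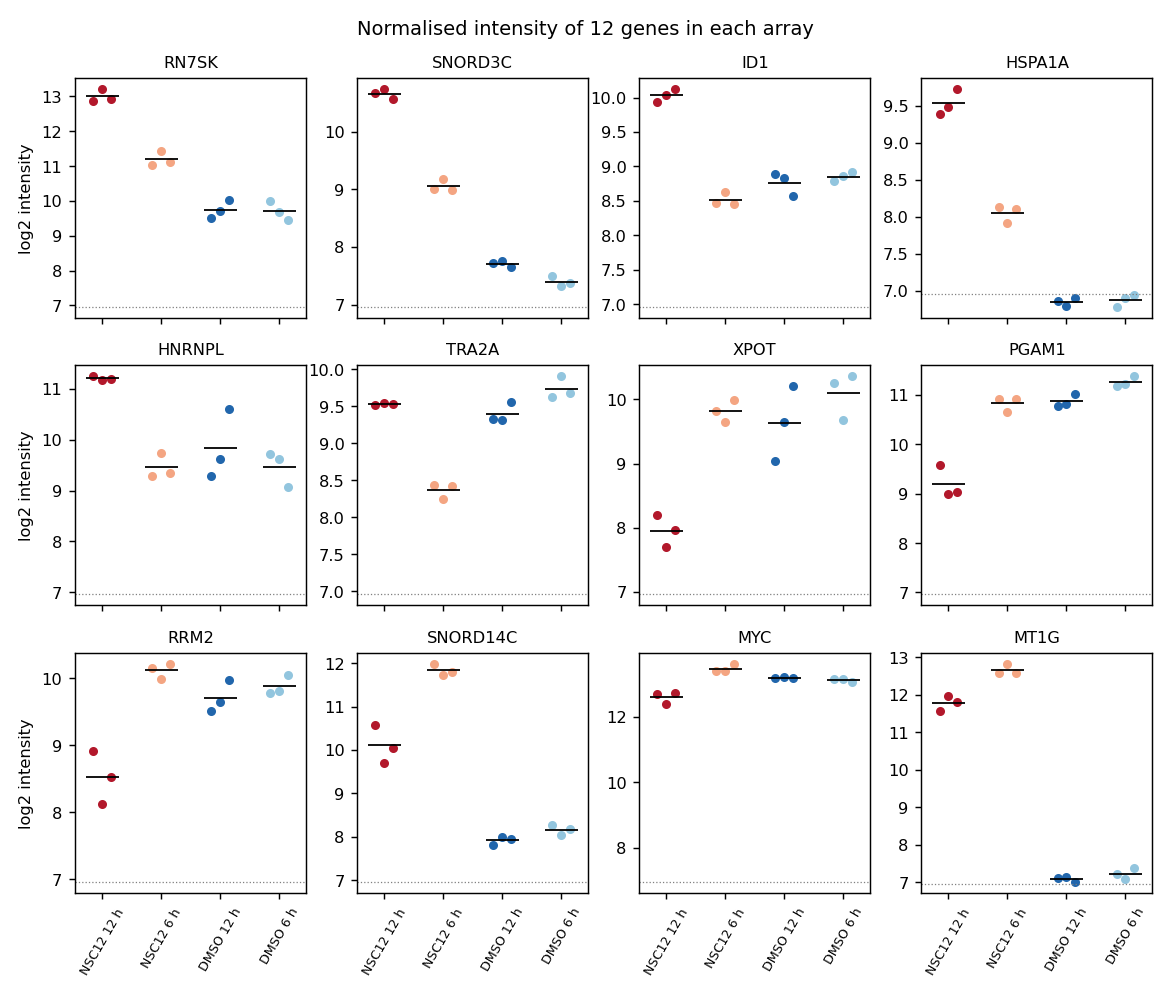
Normalised log2 intensity (vertical axes) of 12 genes in each array, with a dot per array, a black line at the group mean and a dotted line at background (6.96). Groups run from NSC12 12 h and NSC12 6 h to DMSO 12 h and DMSO 6 h; in RN7SK, SNORD3C and HSPA1A the treated 12 h arrays are the highest, in XPOT, PGAM1 and RRM2 they are the lowest, and in SNORD14C and MT1G they lie between the treated 6 h arrays and DMSO.

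Several early-response genes moved in opposite directions in the 2 arms. Of the 15 genes called in both arms with opposite signs, 11 fell with NSC12 and rose with DMSO, 4 did the reverse, and the difference passed for all 15. EGR1, a zinc finger factor induced through MAPK signalling, read 7.40, 7.26 and 7.26 in NSC12 12 h and 8.12, 7.93 and 7.80 in NSC12 6 h, against 8.08, 8.10 and 7.71 in DMSO 12 h and 7.33, 7.23 and 7.13 in DMSO 6 h. It changed by -0.64 ± 0.10 with NSC12 and by 0.73 ± 0.10 with DMSO, so the treated arrays ended near where the DMSO arrays began.

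JUN, a subunit of AP-1, had 13.33, 13.38 and 13.38 in NSC12 12 h and 13.67, 13.64 and 13.65 in NSC12 6 h, against 9.67, 9.68 and 9.46 in DMSO 12 h and 9.15, 9.0 and 9.08 in DMSO 6 h. Its treated level stayed far above DMSO at both times while it fell slightly with NSC12 (-0.29) and rose with DMSO (0.52). JUNB (-0.34 with NSC12 and 0.44 with DMSO), the mRNA decay factor ZFP36 (-0.32 and 0.38), the autophagy kinase ULK1 (-0.38 and 0.39), the glucocorticoid target TSC22D3 (-0.28 and 0.31) and IRF4 (-0.38 and 0.36) showed the same crossing. Under median centring the treated falls of JUN, JUNB, ZFP36, ULK1, TSC22D3 and IRF4 did not pass (adjusted p from 0.0551 to 0.975), and JUN (0.05) and TSC22D3 (0.02) were no longer below 0. FOS, the AP-1 partner of JUN, rose by 0.65 with NSC12 and 0.66 with DMSO, a shared rise with a difference of -0.01 (adjusted p = 0.988).

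The chemokine CCL3 was 13.05, 12.96 and 12.92 in NSC12 12 h and 13.29, 13.33 and 13.08 in NSC12 6 h, against 8.94, 9.04 and 8.92 in DMSO 12 h and 7.94, 8.11 and 7.99 in DMSO 6 h. DMSO cells gained 0.95 ± 0.08 over the interval and the treated cells, far above them at both times, changed by -0.25 ± 0.08, which was a rise under median centring (0.11, adjusted p = 0.802) and did not pass when any of 4 treated arrays was left out (adjusted p up to 0.118, without NSC12 6 h replicate 2). CCL3L3, a nearly identical copy whose signal cannot be separated from it with certainty, read 14.09, 14.10 and 14.06 in NSC12 12 h and 13.86, 13.94 and 13.86 in NSC12 6 h, against 10.64, 10.50 and 10.48 in DMSO 12 h and 9.17, 9.31 and 9.15 in DMSO 6 h. Both treated groups lay near the top of the intensity scale, where changes may be compressed, and the change was 0.20 ± 0.07 with NSC12 against 1.33 ± 0.07 with DMSO. The small treated rise did not pass when any of 5 treated arrays was left out (adjusted p up to 0.119, without NSC12 6 h replicate 1).

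**Figure D3:**
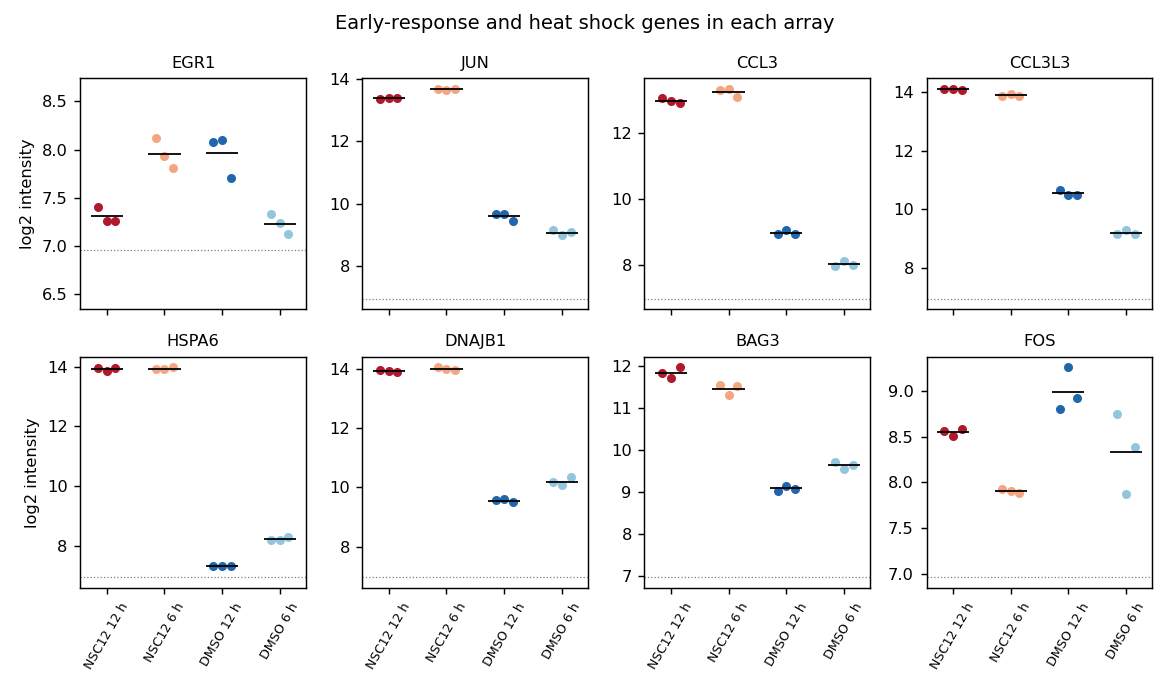
Normalised log2 intensity (vertical axes) of early-response, chemokine and heat shock genes in each array, with dots, mean lines and the dotted background level (6.96) as in the plot of the 12 lead genes. EGR1 is low in NSC12 12 h and high in DMSO 12 h, whereas the plotted probes of HSPA6 and DNAJB1 lie near the top of the scale in both treated groups (13.92 and 13.94 at 12 h) and are lower in DMSO 12 h than in DMSO 6 h; another HSPA6 probe fell with NSC12 (-0.57).

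Heat shock genes encode chaperones under the control of HSF1, which binds inverted GAA repeats in their promoters. HSPA1A, an inducible HSP70 gene, rose to 9.39, 9.49 and 9.73 in NSC12 12 h, against 8.13, 7.92 and 8.11 in NSC12 6 h, while the 6 DMSO arrays (6.78 to 6.94) lay below background. Its change was 1.48 ± 0.09 (adjusted p = 6.96e-10), with none in DMSO (-0.02). Of 25 heat shock genes 6 rose (HSPA1A, DNAJB4 at 0.81, HSPA4 at 0.70, SERPINH1 at 0.65, CRYAB at 0.60 and BAG3 at 0.39) and 3 fell (DNAJB6, HSPE1 and HSPB1). All 6 rises had a difference from DMSO that passed, beside 39.2% of all genes that rose. That difference did not pass for HSPA4 with the mean of its probes (0.26, adjusted p = 0.15; its other probe moved by -0.23) or for SERPINH1 after background subtraction (adjusted p = 0.0627). In DMSO none of the 25 rose and 7 fell, beside 0.249% and 0.15% of all genes. The number of DMSO falls over all genes ran from 8 to 54 when single arrays were left out. The median change of the list was 0.04 with NSC12 against -0.09 with DMSO. With NSC12 the shares were 24% rises and 12% falls, beside 18.0% and 18.7% of the genes above background.

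HSPA6, an HSP70 gene silent in most unstressed cells, read on its brightest probe 13.96, 13.84 and 13.96 in NSC12 12 h and 13.90, 13.91 and 13.97 in NSC12 6 h, against 7.34, 7.35 and 7.35 in DMSO 12 h and 8.21, 8.20 and 8.32 in DMSO 6 h. The treated arrays sat near the top of the intensity scale at both times (-0.01, adjusted p = 0.947), while the DMSO arrays dropped by 0.90, and changes near the top may be compressed. The other HSPA6 probe, above background at a mean of 9.86 and away from the top, fell with NSC12 (-0.57, adjusted p = 0.002 over all probes) and moved by -0.08 with DMSO. With the mean of both probes the difference from DMSO did not pass (0.20, adjusted p = 0.423), so the direction for HSPA6 is uncertain. DNAJB1 (-0.08 with NSC12 and -0.65 with DMSO), HSPH1 (0.05 and -0.41) and HSPA1B (-0.16 and -0.76), each above background on 1 probe, did not pass with NSC12 and fell with DMSO. DNAJB1 also read near the top of the scale when treated, at 13.96, 13.94 and 13.91 in NSC12 12 h. A treated change may be compressed there. For HSPA1B the difference from DMSO did not pass when any of 9 arrays was left out (adjusted p up to 0.127, without DMSO 6 h replicate 1). BAG3, a co-chaperone, was the member with opposite changes, at 0.39 ± 0.08 with NSC12 and -0.55 ± 0.08 with DMSO. Its 3 companions that rose with NSC12 and fell with DMSO were DEDD2 (0.21 with NSC12 and -0.37 with DMSO), KIF20B (0.26 and -0.38) and POLR3G (0.22 and -0.35); the treated rise of KIF20B did not pass when any of 4 treated arrays was left out (adjusted p up to 0.111, without NSC12 12 h replicate 3), nor that of POLR3G when any of 8 arrays was left out (up to 0.227, without NSC12 6 h replicate 2).

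The promoter of HSPA1A (RefSeq, GRCh38.p14, plus strand of chr6:31815293-31815592, from 250 bases before to 50 after the start) is shown because this gene led the heat shock rises. Capitals mark matches to GAANNTTC, a pair of inverted GAA repeats that reads the same on both strands.
HSPA1A: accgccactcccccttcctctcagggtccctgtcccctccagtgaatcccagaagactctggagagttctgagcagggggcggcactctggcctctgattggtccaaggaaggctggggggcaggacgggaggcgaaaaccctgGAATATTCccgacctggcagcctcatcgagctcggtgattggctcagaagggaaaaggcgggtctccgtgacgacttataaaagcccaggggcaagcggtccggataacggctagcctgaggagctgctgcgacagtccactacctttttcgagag
This window holds 1 match. Among the 22 list members with a promoter there, 11 held at least 1 match, against 5.52% of the promoters of tested genes. Matches did not follow the direction of change. HSPA1A and SERPINH1, which rose, held 1 each, and DNAJB4, HSPA4 and BAG3, which also rose, held none. DNAJB6 and HSPB1, which fell, held 1 each, and HSPE1, which also fell, held none. A match is a description of letters and not a measured binding site.

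Metallothioneins, small cysteine-rich proteins that bind zinc and copper and are induced through the factor MTF1 at metal response elements, fell back from a high early level. MT1G had 11.57, 11.95 and 11.81 in NSC12 12 h and 12.57, 12.82 and 12.57 in NSC12 6 h, against 7.12, 7.14 and 7.01 in DMSO 12 h and 7.21, 7.09 and 7.37 in DMSO 6 h. It was lower in all treated 12 h arrays than in all treated 6 h arrays (-0.87 ± 0.10, adjusted p = 1.2e-06) and remained far above DMSO. MT2A, the most widely expressed of the family, read 11.07, 11.21 and 11.09 in NSC12 12 h and 11.94, 12.13 and 11.86 in NSC12 6 h, against 8.08, 7.92 and 7.95 in DMSO 12 h and 7.83, 8.09 and 8.04 in DMSO 6 h, and showed the same order.

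MT1X (-0.87), MT1H (-0.91) and MT1E (-0.68) fell too. Of the 14 metallothionein and zinc transporter genes 7 fell (50%) and 2 rose (14.3%), beside 18.7% and 18.0% of genes above background. Their median change was -0.14 against 0.00 for all genes. Under median centring none rose and 7 fell. None of the 14 was called in DMSO, where 0.399% of all genes were. The difference from DMSO passed for 5 of the 7 falls, all of metallothioneins, beside 47.4% of all genes that fell. Under median centring it did not for MT1G (adjusted p = 0.496), MT1X (0.606) or MT2A (0.229). The importer gene SLC39A6 fell (-0.64), and MTF1 (0.24) and SLC30A5 (0.29) rose, each with a difference from DMSO that did not pass. Members of the family are close in sequence, so their probes may share signal.

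The promoters of MT2A (chr16:56608334-56608633, plus strand) and MT1X (chr16:56682220-56682519, plus strand), from the same RefSeq table and over the same span, are shown because these genes fell together. Capitals mark the core of the metal response element, TGCACNC or TGCGCNC on either strand.
MT2A: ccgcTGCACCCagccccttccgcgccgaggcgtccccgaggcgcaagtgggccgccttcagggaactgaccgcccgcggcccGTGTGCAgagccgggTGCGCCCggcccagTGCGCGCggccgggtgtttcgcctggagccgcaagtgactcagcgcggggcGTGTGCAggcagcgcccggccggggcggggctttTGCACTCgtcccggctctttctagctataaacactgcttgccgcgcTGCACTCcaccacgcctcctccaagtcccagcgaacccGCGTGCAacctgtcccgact
MT1X: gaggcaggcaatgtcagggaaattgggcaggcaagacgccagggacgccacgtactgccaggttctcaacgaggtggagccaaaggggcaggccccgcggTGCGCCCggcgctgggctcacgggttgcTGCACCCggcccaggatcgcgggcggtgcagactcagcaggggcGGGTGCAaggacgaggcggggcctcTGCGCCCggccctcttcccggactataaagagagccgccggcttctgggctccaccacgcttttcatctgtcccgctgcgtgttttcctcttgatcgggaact
The MT2A window holds 8 matches and that of MT1X holds 4. At least 1 match was found in 6 of 9 list members with a promoter in the table, against 34.7% of the promoters of tested genes.

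The integrated stress response, in which translation of ATF4 drives genes of amino acid supply and its targets, moved in both directions. Of 31 genes 12 rose (38.7%) and 6 fell (19.4%), beside 18.0% and 18.7% of the genes above background. The median change of the list was 0.10 with NSC12 against 0.16 with DMSO, where 4 rose, beside 0.249% of all genes. DDIT4, an inhibitor of mTORC1, stood at 12.30, 12.36 and 12.47 in NSC12 12 h and 11.37, 11.48 and 11.47 in NSC12 6 h, against 11.62, 11.46 and 11.36 in DMSO 12 h and 11.01, 11.10 and 10.97 in DMSO 6 h. It rose in both arms, and further with NSC12 (difference 0.48 ± 0.10, adjusted p = 0.00412). SESN2, a leucine sensor, rose by 0.60, with a difference from DMSO that did not pass (adjusted p = 0.0782).

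XPOT and the amino acid transporter SLC7A5 (-0.67) led the falls of this list, and the pro-apoptotic factor DDIT3 did not pass (-0.15, adjusted p = 0.116). Only DDIT4 and SLC7A11 (0.46) rose with a difference from DMSO that passed, beside 39.2% of all genes that rose. It passed for 5 of the 6 falls, beside 47.4% of all genes that fell. Among 27 genes of endoplasmic reticulum chaperones and degradation 4 rose (14.8%) and 10 fell (37.0%), beside 18.0% and 18.7% of genes above background. The difference from DMSO passed for 9 of these falls, beside 47.4% of all genes that fell. The disulphide isomerase PDIA6 (-0.85), the mannosidase-like EDEM1 (-0.55) and the channel component DERL1 (-0.45) fell, while DERL3 rose (0.63) with an undecided difference (0.14, adjusted p = 0.692). Under median centring 13 stress response genes rose and 1 fell, and 5 of the endoplasmic reticulum genes rose and 2 fell. The falls of SLC7A5 (adjusted p = 0.226) and DERL1 (0.303) did not pass there. Nor did the differences from DMSO of DDIT4 (adjusted p = 0.059), SLC7A5 (0.434), PDIA6 (0.152), EDEM1 (0.265) and DERL1 (0.44).

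**Figure D4:**
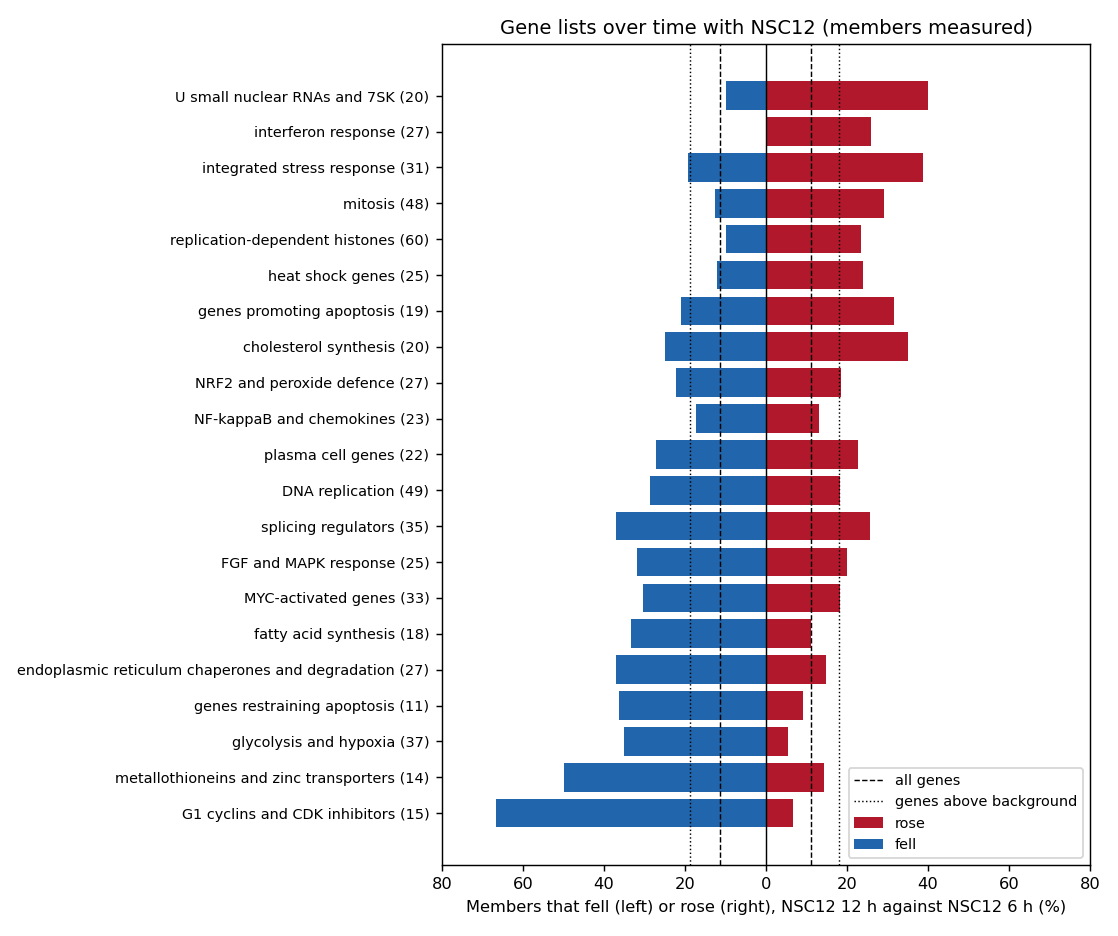
Share of each gene list that fell (left, blue) or rose (right, red) in NSC12 12 h against NSC12 6 h, in percent of the members measured, whose number follows the name. Dashed lines mark all genes (11.0% rose and 11.4% fell) and dotted lines the genes above background (18.0% and 18.7%). Counts are on the quantile scale. Under median centring fewer members fell in most lists, as given in the text, and fewer of all genes fell (694 against 2288).

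Of 18 fatty acid synthesis genes 2 rose (11.1%) and 6 fell (33.3%), beside 18.0% and 18.7% of the genes above background. FASN, the fatty acid synthase, read 11.46, 11.54 and 11.55 in NSC12 12 h and 12.43, 12.30 and 12.36 in NSC12 6 h, against 13.16, 12.99 and 12.89 in DMSO 12 h and 12.97, 13.03 and 13.27 in DMSO 6 h. The treated 12 h arrays were the lowest of all, at -0.85 ± 0.08. ACLY, which supplies acetyl-CoA (-0.79), SCD, the stearoyl-CoA desaturase (-0.59), and SCD5 (-0.46) fell as well, each further than in DMSO. Under median centring 2 fell and 2 rose, and the falls of SCD (adjusted p = 0.463) and SCD5 (0.083) did not pass. The differences from DMSO of FASN (adjusted p = 0.251), ACLY (0.278), SCD (0.28) and SCD5 (0.312) did not pass there either.

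Of 20 cholesterol synthesis genes 7 rose (35%) and 5 fell (25%), beside 18.0% and 18.7% of the genes above background. SQLE, the squalene epoxidase, had 10.53, 10.36 and 10.54 in NSC12 12 h and 11.34, 11.29 and 11.35 in NSC12 6 h, against 11.33, 11.30 and 11.38 in DMSO 12 h and 11.11, 11.20 and 11.01 in DMSO 6 h, and was lowest in the treated 12 h arrays. INSIG1, the sterol sensor that retains SREBP, also fell (-0.63), with a difference from DMSO of -0.99 ± 0.11, while HSD17B7 (0.77) and CYP51A1 (0.73), later enzymes of the pathway, rose further than in DMSO. Under median centring 5 rose and 1 fell, and the fall of INSIG1 did not pass (adjusted p = 0.339). The differences from DMSO of INSIG1 (adjusted p = 0.0823), HSD17B7 (0.0737) and CYP51A1 (0.0702) did not pass there either.

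Only 10 of the 25 measured receptors and ligands of the FGF family were above background in a treated group, so changes of the others could be hidden. FGF9 alone rose (0.49), which is 4% of the 25 beside 11.0% of all genes, and none fell. With array brightness as a covariate none passed. FGFR3 stayed near the top of the scale, with 13.87, 13.80 and 13.92 in NSC12 12 h and 13.83, 13.97 and 13.84 in NSC12 6 h (-0.02, adjusted p = 0.908). A change may be compressed there, and its other probe, dim at a mean of 7.28, moved by 0.22 (adjusted p = 0.0935 over all probes). Of 25 genes that respond to FGF and MAPK signalling 5 rose (20%) and 8 fell (32%), beside 18.0% and 18.7% of genes above background. In DMSO 4 of these response genes rose and none fell, beside 0.249% and 0.15% of all genes. SPRY1, a feedback inhibitor of receptor signalling, read 9.90, 9.91 and 10.01 in NSC12 12 h and 10.81, 10.82 and 10.75 in NSC12 6 h, against 10.82, 11.06 and 11.12 in DMSO 12 h and 10.88, 10.98 and 10.97 in DMSO 6 h; only the treated 12 h arrays stood apart. IL17RD (SEF), another feedback inhibitor, went the other way (1.0) on 1 of 3 probes, from a treated 6 h level below DMSO, and its difference from DMSO did not pass with the mean of its probes (adjusted p = 0.237).

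MYC, the growth factor-driven oncogene, was 12.70, 12.40 and 12.73 in NSC12 12 h and 13.40, 13.40 and 13.62 in NSC12 6 h, against 13.19, 13.22 and 13.18 in DMSO 12 h and 13.16, 13.17 and 13.07 in DMSO 6 h. The treated 6 h arrays were the highest and the treated 12 h arrays the lowest, with a fall of 1.82-fold (-0.87 ± 0.08, adjusted p = 6.73e-08) and a difference from DMSO of -0.93 ± 0.11; a second probe moved by -0.44. Under median centring that difference did not pass (-0.69, adjusted p = 0.0817). Of 33 MYC-activated genes 6 rose (18.2%) and 10 fell (30.3%), beside 18.0% and 18.7% of the genes above background. The mitochondrial helicase TWNK (-0.68), ODC1 of polyamine synthesis (-0.52) and RRP12 of ribosome assembly (-0.51) fell. MRTO4, another ribosome assembly gene, rose (0.60). Under median centring 5 rose and 2 fell, and ODC1 (adjusted p = 0.673) and RRP12 (0.118) did not pass. Of the FGF and MAPK response genes 4 rose and 4 fell there, and MYC and SPRY1 were among the falls.

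G1 regulators had the highest share of falls of the lists described, 10 of 15 (66.7%), beside 18.7% of the genes above background. Only 1 rose, and the median change was -0.31. CCND2, a D-type cyclin, stood at 12.73, 12.74 and 12.80 in NSC12 12 h and 13.33, 13.21 and 13.42 in NSC12 6 h, against 13.63, 13.50 and 13.52 in DMSO 12 h and 13.69, 13.67 and 13.73 in DMSO 6 h. The treated 12 h arrays were the lowest (-0.56 ± 0.06), and a second probe fell (a change of -0.75). CDKN1B (p27; -0.56), RBL2 (p130; -0.49) and CDK6 (-0.46) fell too. The other bright probe of CDKN1B moved by 0.18, and with the mean of its probes neither its fall (-0.19, adjusted p = 0.0586) nor its difference from DMSO (0.162) passed. The difference from DMSO passed for 4 of the 10, beside 47.4% of all genes that fell. Under median centring 2 of the 15 fell and 1 rose, beside 694 falls and 1818 rises among all 20045 genes. CCND2 was at -0.20 there (adjusted p = 0.48). The difference of RBL2 from DMSO did not pass when any of 5 arrays was left out (adjusted p up to 0.0856, without NSC12 6 h replicate 3).

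Of 49 DNA replication genes 9 rose (18.4%) and 14 fell (28.6%), beside 18.0% and 18.7% of the genes above background. Besides RRM2 the falls held UHRF1, which directs maintenance methylation (-0.97), the activator E2F2 (-0.77) and SLBP, the histone mRNA binding protein (-0.72). UHRF1 read 10.17, 10.09 and 10.03 in NSC12 12 h and 11.06, 10.96 and 11.18 in NSC12 6 h, against 11.38, 11.34 and 11.44 in DMSO 12 h and 11.41, 11.40 and 11.49 in DMSO 6 h, so it was below DMSO at 6 h and lower again at 12 h. Of 48 mitosis genes 14 rose (29.2%) and 6 fell (12.5%). In DMSO none of them rose and 3 fell, beside 0.249% and 0.15% of all genes. The phosphatase CDC25C (0.56), the kinase NEK2 (0.47) and ECT2, which drives cytokinesis (0.47), rose, whereas the checkpoint gene MAD2L1 (-0.69) and BIRC5 (-0.26) fell.

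Several of these calls rested on the setting. Under median centring 6 replication genes rose and 6 fell, 10 mitosis genes rose and none fell, and MAD2L1 did not pass (adjusted p = 0.117). With the mean of their probes NEK2 (0.12, adjusted p = 0.2), MAD2L1 (-0.11, 0.429) and BIRC5 (-0.17, 0.108) did not pass, and the second probe of MAD2L1 rose (0.47, adjusted p = 0.0055 over all probes). The second SLBP probe, at a mean level of 9.63 against 9.82, moved by -0.03 (adjusted p = 0.93 over all probes). The other CDC25C probes above background moved by -0.04 and 0.11. With the mean of probes the differences from DMSO of SLBP (adjusted p = 0.0541) and CDC25C (0.0567) did not pass. The difference of ECT2 from DMSO did not pass when any of 8 arrays was left out (adjusted p up to 0.113, without DMSO 6 h replicate 2), and the fall of BIRC5 did not without NSC12 12 h replicate 3 (0.0675) or NSC12 6 h replicate 3 (0.0855).

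Replication-dependent histone genes have mRNAs that lack a poly(A) tail. Of 60 such genes 14 rose (23.3%) and 6 fell (10%), beside 18.0% and 18.7% of the genes above background. H3C4 had 10.24, 10.25 and 10.18 in NSC12 12 h and 9.44, 9.51 and 9.21 in NSC12 6 h, against 7.17, 7.21 and 7.13 in DMSO 12 h and 7.14, 7.10 and 7.04 in DMSO 6 h, and its rise of 0.83 ± 0.08 continued from a treated 6 h level already far above DMSO. H2BC4 (0.77) and H2BC6 (0.64) rose further than in DMSO, with differences that did not pass after background subtraction (adjusted p = 0.268 and 0.144). H4C3 rose by 0.96, but its DMSO arrays ran from 12.69 to 14.08 and the difference did not pass (adjusted p = 0.246). Copies of these genes are close in sequence and may share signal.

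Of 35 splicing regulators 9 rose (25.7%) and 13 fell (37.1%), beside 18.0% and 18.7% of the genes above background. TRA2A, an activator of exon inclusion, read 9.52, 9.55 and 9.54 in NSC12 12 h and 8.44, 8.25 and 8.42 in NSC12 6 h, against 9.33, 9.31 and 9.56 in DMSO 12 h and 9.63, 9.90 and 9.68 in DMSO 6 h. The treated 6 h arrays were the lowest of the 4 groups and the treated 12 h arrays were back among those of DMSO 12 h, a change of 1.16 ± 0.09 with a difference from DMSO of 1.50 ± 0.13 (adjusted p = 4.11e-07). HNRNPK, an RNA-binding protein, fell by 0.98, with 11.89, 11.44 and 11.71 in NSC12 12 h and 12.72, 12.51 and 12.75 in NSC12 6 h, and its other probes moved by -0.25, -1.21 and -0.07. HNRNPU rose (1.04) on its brightest probe while its other probe moved by -0.19. Under median centring 9 of the 35 rose and 3 fell.

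Of 19 apoptosis genes that promote cell death 6 rose (31.6%) and 4 fell (21.1%), beside 18.0% and 18.7% of genes above background. BAX, the mitochondrial pore former, had 11.01, 11.18 and 10.97 in NSC12 12 h and 10.17, 10.43 and 10.10 in NSC12 6 h, against 10.33, 10.55 and 10.56 in DMSO 12 h and 10.17, 10.13 and 10.11 in DMSO 6 h. Its treated 12 h arrays were the highest (0.82 ± 0.09), while its other probes were dim and moved by 0.12 and -0.06. The BH3-only genes HRK (0.86) and PMAIP1 (NOXA; 0.58) rose and BMF fell (-0.62). Of 11 genes that restrain apoptosis 4 fell (36.4%) and 1 (9.09%), CFLAR, rose by 0.81. The rise of CFLAR did not pass with array brightness as a covariate (0.59, adjusted p = 0.0588) or after background subtraction (0.0637), its DMSO arrays ran from 9.20 to 10.45, and its difference from DMSO was undecided (adjusted p = 0.235). BCL2 read 10.04, 10.19 and 10.20 in NSC12 12 h and 10.87, 10.78 and 10.86 in NSC12 6 h, against 11.13, 10.91 and 11.02 in DMSO 12 h and 11.04, 11.10 and 11.01 in DMSO 6 h; it was lowest in the treated 12 h arrays (-0.69 ± 0.07), XIAP, a caspase inhibitor, fell with an undecided difference (-0.22), and the brightest probe of MCL1 did not pass (-0.01, adjusted p = 0.941). The other MCL1 probe, above background at a mean of 8.63, fell (-1.01, adjusted p = 6.43e-07 over all probes) with a difference from DMSO of -0.82 (adjusted p = 0.00172).

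Under median centring the fall of BCL2 did not pass (adjusted p = 0.0662), and none of the 11 restraining genes fell. That of XIAP did not pass without NSC12 12 h replicate 2 (adjusted p = 0.11) and not without NSC12 6 h replicate 1 (0.11). The differences from DMSO of BAX (adjusted p = 0.0608) and HRK (0.0587) did not pass without NSC12 12 h replicate 2, and that of PMAIP1 not without NSC12 12 h replicate 3 (0.081). The same held for BAX without NSC12 6 h replicate 3 (0.0622), for HRK without DMSO 6 h replicate 2 (0.0548) and for PMAIP1 without NSC12 6 h replicates 2 (0.0551) or 3 (0.0507), DMSO 12 h replicate 2 (0.0504) or DMSO 6 h replicate 1 (0.0676).

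Of 22 plasma cell genes 5 rose (22.7%) and 6 fell (27.3%), beside 18.0% and 18.7% of the genes above background. The difference from DMSO passed for all 6 falls, beside 47.4% of all genes that fell. IRF4, on which myeloma cells depend, read 10.63, 10.68 and 10.80 in NSC12 12 h and 11.12, 11.08 and 11.04 in NSC12 6 h, against 11.16, 11.18 and 10.98 in DMSO 12 h and 10.82, 10.82 and 10.61 in DMSO 6 h, so the order of the times was opposite in the 2 arms. The terminal differentiation factor PRDM1 (-0.62), the disulphide isomerase TXNDC5 (-0.77) and the kinase PIM2 (-1.18) fell as well. With the mean of its probes neither the fall of PRDM1 (-0.18, adjusted p = 0.0933) nor its difference from DMSO (0.214) passed, and the difference of PIM2 did not after background subtraction (0.151). The DMSO arrays of PIM2 ran from 12.13 to 13.30. Under median centring 7 of the 22 rose and 1 fell. The differences from DMSO of IRF4 (adjusted p = 0.331), PRDM1 (0.343), TXNDC5 (0.261) and PIM2 (0.059) did not pass there. MIAT, a long noncoding RNA lower in treated than in DMSO cells at both times, fell again, with 8.76, 8.88 and 8.79 in NSC12 12 h and 9.71, 9.72 and 9.85 in NSC12 6 h, against 11.91, 11.77 and 11.79 in DMSO 12 h and 11.95, 11.88 and 12.11 in DMSO 6 h.

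Interferon response genes rose in 7 of 27 (25.9%) and fell in none, beside 18.0% and 18.7% of the genes above background. Under median centring 5 rose. IFI6, an interferon-induced mitochondrial protein, led (1.06), though its DMSO arrays ran from 9.72 to 10.53. OASL (0.49) and IFIT2 (0.46) stayed dim, and ISG15 rose by 0.39 with an undecided difference from DMSO. Of 23 NF-kappaB and chemokine genes 3 rose (13.0%) and 4 fell (17.4%), and under median centring 3 rose and none fell. The regulator NFKBIZ rose (0.77). NFKB1 (-0.51) and RELB (-0.43), 2 subunits of the factor, fell, RELB with an undecided difference from DMSO. The fall of RELB did not pass with array brightness as a covariate (adjusted p = 0.41), nor when any of 5 treated arrays was left out (up to 0.124, without NSC12 12 h replicate 1).

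Glycolysis and hypoxia genes fell in 13 (35.1%) and rose in 2 (5.41%) of 37, beside 18.7% and 18.0% of genes above background. For 11 of the falls the difference from DMSO passed, beside 47.4% of all genes that fell. Besides PGAM1 these were led by HK2, which phosphorylates glucose (-0.85), NDRG1, a hypoxia marker (-0.82), and PGK1 (-0.78). NDRG1 had 9.45, 9.50 and 9.58 in NSC12 12 h and 10.37, 10.30 and 10.33 in NSC12 6 h, against 10.60, 10.60 and 10.72 in DMSO 12 h and 10.53, 10.41 and 10.60 in DMSO 6 h, and the treated 12 h arrays stood below all others. Of 27 NRF2 and peroxide defence genes 5 rose (18.5%) and 6 fell (22.2%). The mitochondrial peroxidase PRDX3 (-1.01), the reductase TXNRD1 (-0.78), PGD of the pentose phosphate pathway (-0.59) and KEAP1, the NRF2 repressor (-0.60), were among the falls. Under median centring 5 glycolysis genes fell and 3 rose, 2 NRF2 genes fell and 6 rose, and PGK1 (adjusted p = 0.0842), PGD (0.207) and KEAP1 (0.0531) did not pass. Nor did the differences from DMSO of HK2 (adjusted p = 0.174) and PGK1 (0.607).

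The 28 changes also called in DMSO, with no difference that passed, were few and modest. INHBE, an activin subunit of the amino acid stress response, read 11.72, 11.88 and 11.84 in NSC12 12 h and 11.06, 11.13 and 11.19 in NSC12 6 h, against 11.47, 11.70 and 11.46 in DMSO 12 h and 10.90, 10.94 and 10.87 in DMSO 6 h. It rose by about the same amount in both arms (0.69 and 0.64, difference 0.05 ± 0.11). LY96, a co-receptor of TLR4 (0.77 with NSC12 and 0.48 with DMSO), CD48 (0.76 and 0.41), the ubiquitin ligase FBXO32 (0.75 and 0.41), FOS and ASS1 of arginine synthesis (0.63 and 0.46) made up the other leading shared rises.

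The leading shared falls were ITPRID2 (-0.68 with NSC12 and -0.41 with DMSO), ACAP2 (-0.67 and -0.39), the nucleolar helicase DDX21 (-0.66 and -0.41), PPIA (-0.52 and -0.43), STXBP3 (-0.47 and -0.41) and the translation initiation gene EIF3J (-0.38 and -0.40). The number of shared changes depended on single DMSO arrays, at 3 without DMSO 6 h replicate 3 and 57 without DMSO 12 h replicate 3. With the mean of its probes FBXO32 did not pass in NSC12 (adjusted p = 0.126), nor did DDX21 (0.245) or EIF3J (0.547) under median centring. A difference that does not pass does not show that the arms acted alike.

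The genes that rose and those that fell differed in genomic length and promoter GC content, which the comparison did not use. Among protein-coding genes above background the median genomic length was 22.3 kb for 2000 that rose, 37.9 kb for 2188 that fell and 29.2 kb for 7076 that did not pass. Promoter GC content had medians of 64.3%, 66.7% and 64.7% in the same order, over the 83.0% to 84.1% of genes with a promoter in the table. Where a gene had several probes above background, all moved in the same direction for 526 of 799 genes that fell (65.8%), 307 of 571 that rose (53.8%) and 809 of 1615 that did not pass (50.1%). The brightest of these probes made the call, so this agreement is not independent of the comparison. For the rises it was close to that of genes that did not pass. The lengths, GC contents and probe shares describe genes, which are not independent of one another, and no test was made of them.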

How the data were processed

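RNA of the 12 KMS-11 arrays was extracted with Trizol and labelled as biotinylated cRNA for Illumina arrays with an Ambion kit, per the labels' protocols. The deposited files hold linear probe intensities (69.5 to 25534) that differ in mean between arrays and were treated as unnormalised. The authors' scanner software, background correction and normalisation were not given in the sources used here; precision is limited by the number of arrays.

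Of 47319 probes 30111 had 1 gene symbol in the platform annotation, 8 several and 17200 none listed; 30072 were matched to RefSeq genes of GRCh38.p14. A floor of 16 (which no value was below), quantile normalisation over 12 arrays, log2 and the brightest probe per gene gave 20045 genes, 6691 with several probes. No identical arrays were found. A limma 3.58.1 model (R 4.3.3) with 4 group means and an intensity trend gave every group 1 shared estimate of the spread, and the Benjamini-Hochberg adjustment ran over all genes. The fit was tried on simulated data of the same 20045 genes. The NSC12 time contrast recovered 94 of 100 planted changes of 0.5 log2 and 100 of 100 of 1 log2. The difference contrast recovered 65 and 100, and false calls numbered 12 and 11. The simulation did not model array brightness, scaling or deviations that many genes of an array share. It thus gives no measure of how the calls hold against these. In the measured arrays, median centring took the number that differed from DMSO from 1951 to 348. Promoters are from RefSeq; some named genes have no entry in the table used. Tables and figures were made with pandas 2.3.3 and matplotlib 3.10.9.

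The comparison, the 31 gene lists and the named genes were chosen with earlier results of these data known. The rule named the 12 largest rises and falls (above background, without overlap of the treated groups), the 8 largest differences from DMSO each way, the 6 largest shared changes each way, up to 4 members of each described list and 10 preset genes, leaving out immunoglobulin genes and provisional names. SNORD13, SNORD11, SNORD3D, SNORD104, SNORA28, SNORA70, RNU6ATAC, RNU11, RNU5A-1, RNU2-1, CCNT2, LARP7, HSPA1B, DNAJB1, HSPH1, HSPA8, CRYAB, DNAJB6, HSPE1, HSPB1, BAG3, DEDD2, KIF20B, POLR3G, CCL3L3, JUN, JUNB, ZFP36, ULK1, TSC22D3, MT1E, MTF1, SLC30A5, SLC39A6, SLC7A11, FGF9, DCN, TNFRSF17, XBP1, CD38, GADD45B, ZMAT3, RPL14, PSMC6, MCOLN1 and CBS were named after their values were seen. Alternatives were median centring, cyclic loess, the mean of probes, background subtraction, genes above background only, 1 arm only, no intensity trend, array brightness as a covariate, the replicate block and leaving out each array.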

Additional observations from a re-analysis of the deposited data

Results flagged for a closer look

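For 116 named genes the change from 6 h to 12 h with NSC12 differed from the change with DMSO by the test of the difference itself (limma, adjusted p below 0.05), and this is what marked them for a closer look. Values are the log2 change in NSC12 minus the log2 change in DMSO. No explanation of these differences was tested.

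Upward, the widest gaps were those of RIMBP3 (2.05), RN7SK (1.76), ID1 (1.61), HSPA1A (1.51), TRA2A (1.50), HNRNPL (1.38), SNORD46 (1.36), SNORD3C (1.29), XRCC2 (1.27), RYBP (1.24), RNU6-1 (1.24), CCBE1 (1.12) and SNORD3A (1.09). Next among the upward gaps came SNORD11 (1.09), CD68 (1.07), IFI6 (0.99), HNRNPU (0.99), SNORA28 (0.98), NFKBIZ (0.97), SNORD3D (0.94), BAG3 (0.94), USF1 (0.93), HSPA6 (0.88), DNAJB4 (0.83), HSPA4 (0.80) and SNORD13 (0.79). Then followed H3C4 (0.76), RNU4-1 (0.72), RNU4-2 (0.71), SERPINH1 (0.68), RNU6ATAC (0.66), MRTO4 (0.65), KIF20B (0.64), CYP51A1 (0.64), SNORD104 (0.63), IL17RD (0.61), H2BC4 (0.60), HSPA1B (0.59) and HSD17B7 (0.58). Lower upward values belonged to POLR3G (0.57), DNAJB1 (0.57), HRK (0.56), CDC25C (0.56), IFIT2 (0.54), H2BC6 (0.53), PMAIP1 (0.49), DDIT4 (0.48), BAX (0.48), HSPH1 (0.46), OASL (0.46), ECT2 (0.45), NEK2 (0.45) and NFKBIB (0.41).

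The widest downward gaps were held by SNORD14C (-1.48), RRM2 (-1.42), XPOT (-1.40), EGR1 (-1.38), PSMC4 (-1.25), PGAM1 (-1.23), CCL3 (-1.21), SNORD14D (-1.20), CCL3L3 (-1.13), LBR (-1.09), SQLE (-1.08), TCEA1 (-1.06) and MDFIC (-1.03). After these stood PIM2 (-1.02), CXCR4 (-1.0), INSIG1 (-0.99), VOPP1 (-0.98), NDRG1 (-0.95), MYC (-0.93), UHRF1 (-0.93), MT1H (-0.92), TMPO (-0.91), SPRY1 (-0.91), SNORA70 (-0.86), MT2A (-0.85) and PDIA6 (-0.83). The middle of the downward values held SCD (-0.82), JUN (-0.82), TXNDC5 (-0.81), PRDX3 (-0.81), E2F2 (-0.80), MIAT (-0.79), ULK1 (-0.78), FASN (-0.77), JUNB (-0.77), MT1G (-0.74), IRF4 (-0.74), ACLY (-0.74) and TXNRD1 (-0.73). Smaller downward values were found for BMF (-0.71), ZFP36 (-0.70), HNRNPK (-0.69), SLBP (-0.69), HK2 (-0.68), SLC7A5 (-0.68), PRDM1 (-0.67), BCL2 (-0.66), TWNK (-0.65), MT1X (-0.63), PGK1 (-0.59), TSC22D3 (-0.59) and CDKN1B (-0.58). Still smaller ones belonged to DERL1 (-0.54), EDEM1 (-0.53), PGD (-0.53), NFKB1 (-0.52), SCD5 (-0.51), BIRC5 (-0.48), RBL2 (-0.48), MAD2L1 (-0.48), KEAP1 (-0.48), ODC1 (-0.45) and CCND2 (-0.42).

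CCL3, EGR1, JUN, JUNB, ZFP36, ULK1, TSC22D3 and IRF4 fell with NSC12 and rose with DMSO, and BAG3, KIF20B and POLR3G did the reverse. CCL3L3 rose in both arms, and less with NSC12. HSPA6, DNAJB1, HSPA1B and HSPH1 fell with DMSO and did not pass with NSC12 on their brightest probes. The second HSPA6 probe fell with NSC12.

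Under median centring the difference did not pass for 61 of the 116. Among them were ACLY, BAX, BCL2, BIRC5, BMF, CCND2, CDC25C, CDKN1B, CYP51A1, DDIT4, DERL1, DNAJB1, E2F2, ECT2, EDEM1, FASN, HK2, HNRNPK, HRK, HSD17B7 and HSPA1B. Others were HSPH1, IL17RD, INSIG1, IRF4, JUN, KEAP1, KIF20B, MAD2L1, MIAT, MRTO4, MT1G, MT1X, MT2A, MYC, NEK2, NFKB1, NFKBIB, ODC1, PDIA6, PGD, PGK1 and PIM2. Nor did the difference pass for PMAIP1, POLR3G, PRDM1, PRDX3, RBL2, SCD, SCD5, SLBP, SLC7A5, SNORA70, SNORD104, SPRY1, TSC22D3, TWNK, TXNDC5, TXNRD1, UHRF1 and ZFP36. After background subtraction it did not for 33, which were BAX, CXCR4, CYP51A1, ECT2, H2BC4, H2BC6, HNRNPK, HNRNPL, HRK, HSPA1B, IFI6, IFIT2, KEAP1, LBR, MT1G, NFKBIB, OASL, PGK1, PIM2, PMAIP1, PRDX3, PSMC4, RBL2, RNU4-2, RNU6ATAC, RYBP, SERPINH1, SNORD11, SNORD13, SNORD14D, SNORD3D, USF1 and XPOT. With the mean of all probes of a gene it did not for 21, which were BAX, CDC25C, CDKN1B, CXCR4, HNRNPU, HSPA1B, HSPA4, HSPA6, IL17RD, KEAP1, MAD2L1, NEK2, NFKBIB, PMAIP1, POLR3G, PRDM1, PRDX3, SCD5, SLBP, TMPO and USF1. With array brightness as a covariate it did not for 6, which were ECT2, HRK, HSPA1B, RYBP, SNORD13 and USF1. When single arrays were left out it failed at least once for 11, which were BAX, ECT2, HRK, HSPA1B, KEAP1, NFKBIB, PMAIP1, RBL2, RYBP, SNORD13 and USF1; for NFKBIB this was so with any of 9 arrays left out (adjusted p up to 0.122).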

How the results depend on the processing

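Arrays were few and differed in brightness, and both the scaling and single arrays moved the counts. Under median centring 1818 genes rose and 694 fell in NSC12, 13 rose and 1 fell in DMSO, the difference passed for 277 upward and 87 downward, 348 differed from DMSO and 1 was shared; 35 of 135 named treated calls and 61 of 116 named differences were not kept. CCL3 (0.11), JUN (0.049) and TSC22D3 (0.017) turned to a change above 0 there without passing. Background subtraction left 616 upward differences, 16 DMSO falls and 16 shared changes, and cyclic loess 16 DMSO falls. Fitted on the DMSO arrays alone, 9 genes rose and 6 fell in DMSO. The cause of these shifts was not tested. In NSC12 the other settings that kept all arrays gave 1870 to 2396 rises and 1935 to 2485 falls. Leaving out single arrays gave 1693 to 2333 rises and 1874 to 2399 falls in NSC12, 653 to 995 upward and 891 to 1180 downward differences, 1430 to 2015 genes that differed from DMSO and 2093 to 2879 not decided. It gave 13 (without DMSO 12 h replicate 2 or DMSO 6 h replicate 3) to 83 rises (without DMSO 12 h replicate 1) and 8 to 54 falls (without DMSO 12 h replicate 3) in DMSO, and 3 to 57 shared changes. Low signal limits dim genes: 57.1% of genes lay above background.

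Replicate numbers did not pair the arrays: deviations of same-numbered arrays correlated at -0.47 to 0.18, over 0.1 in 2 of 18 pairs. The fit with the replicate block gave 2124 rises and 2202 falls in NSC12, 36 rises and 18 falls in DMSO, 893 upward and 1099 downward differences and 16 shared changes.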

Other observations

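In lists not described above, rises and falls of the treated interval mixed. Of 28 proteasome subunit genes 5 rose and 6 fell, with PSMC6 (-0.76) beside PSMC4 among the falls, and under median centring 9 rose and 2 fell. Cytosolic ribosomal protein genes rose in 6 and fell in 4 of 53, led by RPL14 (1.39). Oxidative phosphorylation genes rose in 8 and fell in 2 of 38, with 13 rises and no fall under median centring. Of 21 p53 targets 4 rose, among them GADD45B (1.02) and ZMAT3 (0.72), and 7 fell. Autophagy and lysosome genes rose in 7 and fell in 5 of 28, with MCOLN1, a lysosomal cation channel, at 0.65. Of 18 methionine cycle and polyamine genes 2 rose and 6 fell, among them CBS (-0.58) and ODC1. Of all genes 11.0% rose and 11.4% fell.

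Probes for 560 microRNA genes reached background in 70 cases, and 7 of the genes rose and 5 fell over the treated interval. No hypothesis is offered for these values.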
